A study of Homo sapiens with 18 samples.

Results

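The Rab genes encode the largest family of small GTPases of membrane traffic. They were taken as the rows of the count table whose symbol is RAB followed by a number and at most a letter and a further digit, with at least 10 counts in 3 or more of the 18 libraries. Of 25435 rows, 61 had such a symbol and 51 passed. Of these, 21 were assigned to the secretory pathway, 18 to the endocytic pathway and 12 to other roles, from general knowledge of each protein.

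The libraries were RNA-Seq of HEK293doxERN2 cells, a human embryonic kidney line with a FLAG-tagged ERN2 gene that doxycycline switches on. ERN2, also called IRE1β, is a sensor of stress in the endoplasmic reticulum (ER) that is otherwise made in mucosal epithelium. Cells received no doxycycline (labelled No ERN2), 10 ng/mL (Low ERN2) or 100 ng/mL (High ERN2) for 24 hours. At each dose they were also given 200 nM thapsigargin, which blocks the calcium pump of the ER and causes ER stress, or DMSO as vehicle for 3 hours, with 3 libraries in each of the 6 groups. All libraries, the uninduced ones included, carry the transgene, and all come from this 1 line. No transgene-free cells given doxycycline are among the 18 libraries, so doxycycline and ERN2 cannot be told apart. The labels do not say whether replicates were separate cultures, so a p-value here measures only the spread between 3 libraries, which may be technical.

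A Rab protein works as a switch. Bound to GTP it sits on a membrane and recruits tethers, motors and other effectors. Bound to GDP it is extracted into the cytosol. Exchange factors load the GTP, GTPase-activating proteins end the signal, and a prenyl anchor holds the protein on its membrane. Each Rab marks its own compartment, so RAB1 and RAB2 serve traffic between the ER and the Golgi, RAB6 the Golgi, RAB3 and RAB27 regulated exocytosis, RAB5 early endosomes, RAB11 recycling endosomes and RAB7 late endosomes.

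Library totals ran from 14876416 to 24652240 counts on genes. Levels are given as CPM, counts scaled to the same library size. ERN2 rose with the dose, from 7.79 ± 1.27 CPM (SD, n = 3) in uninduced cells to 35.2 ± 18.1 at 10 and 270.0 ± 33.8 at 100 ng/mL under vehicle, so the No ERN2 libraries still held ERN2 reads. HSPA5, the ER chaperone BiP, and DDIT3, the stress transcription factor CHOP, rose under thapsigargin at each dose. HSPA5 differed by 2.87 on the log2 scale in uninduced cells, by 2.20 at the lower dose and by 1.20 at the higher. Thapsigargin-treated replicates 2 and 3 at 100 ng/mL stood apart from the other 16 libraries over 15023 genes, at 81.0 and 61.7 on the first principal component against −37.8 to 29.6. Rab genes named for comparisons that use these 2 libraries are mostly given with and without them. Many counts, and the values of genes outside the family, are given only with them. The protocol label of the libraries names colon crypt cells. All 6 HEK293 markers exceeded 1 CPM, while of 10 markers of colon epithelium and goblet cells CDX2 and LGR5 exceeded 1 CPM and TFF3 and CLCA1 were at 0 in every library.

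Levels of different members can be compared only per length of transcript, here as CPM per kilobase of exon averaged over the 18 libraries. The highest secretory member was RAB1B, which works in ER-to-Golgi transport, at 129 CPM per kb. The highest endocytic member was RAB5C of early endosomes at 109 CPM per kb, followed by RAB7A of late endosomes at 92.3. The highest of the other members was RAB24, linked to autophagy, at 32.0 CPM per kb. The ranges over libraries of neighbours in this order overlapped throughout, with 1 exception, RAB7A and RAB11B, whose ranges did not meet. At the low end lay RAB33A at 0.282, RAB40A at 0.164 and RAB43 at 0.124 CPM per kb. Levels of RAB43, a Golgi Rab, are uncertain, because 3956 of its exonic bases are shared on the same strand with the read-through gene ISY1-RAB43. In the same way RAB4B, with 0 counts in every library, shares 1010 bases with MIA-RAB4B and 1076 with RAB4B-EGLN2.

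**Figure D1:**
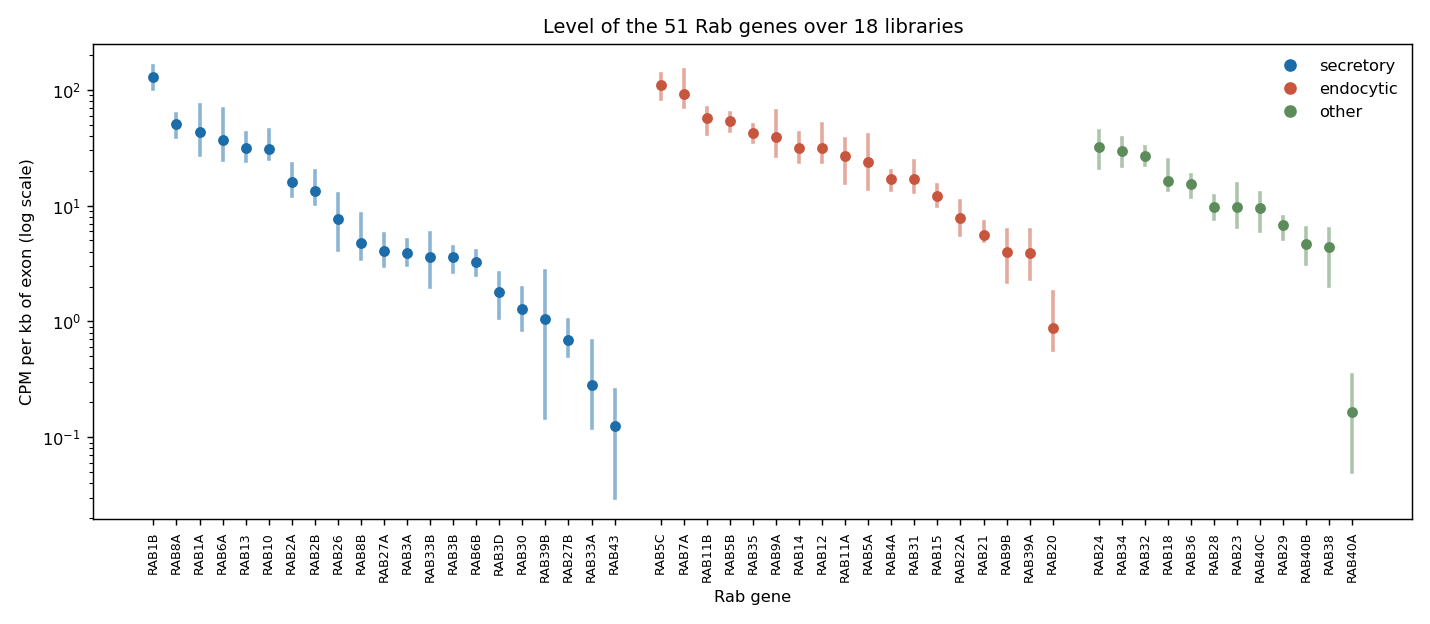
Level of the 51 Rab genes, as CPM per kilobase of exon on a log axis, for each gene on the horizontal axis. Points are the mean of the 18 libraries, bars run from the lowest to the highest library, and colours give the role. RAB1B, RAB5C and RAB24 lead their groups at 129, 109 and 32.0, and RAB43 is lowest at 0.124.

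The 10 symbols that did not pass the count minimum were RAB17, RAB19, RAB25, RAB37, RAB3C, RAB41, RAB42, RAB44, RAB4B and RAB6C. None of them exceeded 11 counts in any library. Among them, RAB17 and RAB25 serve polarised epithelial traffic and RAB37 secretory granules.

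Thapsigargin without doxycycline was the treatment with the most Rab genes past the threshold of an adjusted p of 0.01 (edgeR quasi-likelihood test, Benjamini-Hochberg adjustment over all genes tested). RAB39B, RAB33B and RAB24 rose, and RAB3D and RAB11A fell. That makes 3 higher and 2 lower of 48 members tested, beside 6.45% of all genes higher and 4.74% lower, so the shares are near the background of this comparison. At an unadjusted p under 0.05 there were 20 members, beside 35.9% of all genes. RAB33A, RAB40A and RAB43 had too few counts for the test.

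RAB39B, a Golgi-associated Rab best known from neurons, lies at chrX:155258241-155264589 (GRCh38, minus strand, 2 exons). It had 24, 14 and 9 counts in the vehicle libraries without doxycycline and 99, 170 and 66 after thapsigargin. Scaled for depth, these were 1.20, 0.76 and 0.514 CPM against 5.36, 9.07 and 3.76 CPM. Every thapsigargin library lay above every vehicle library, and the log2 difference was 2.86 ± 0.371 (SE, edgeR adjusted p = 0.000195), a 7.28-fold rise from a low level. It passed in each of the 11 alternative fits, the 6 that leave out a library included.

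RAB33B, which acts at the Golgi and in the formation of autophagosomes, lies at chr4:139453232-139476609 (GRCh38, plus strand). It stood at 9.00, 11.7 and 10.5 CPM under vehicle and at 26.6, 24.5 and 25 CPM under thapsigargin. The thapsigargin libraries lay close together and far above the vehicle libraries, with a log2 difference of 1.30 ± 0.14 (SE, edgeR adjusted p = 4.6e-05). This call also passed in all 11 alternative fits. Of its exonic bases, 694 overlap the antisense gene AC097376.2. Whether counting used strand is not given in the sources used here, so reads of such a pair cannot be assigned with certainty.

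RAB24, an unusual Rab linked to autophagy, lies at chr5:177301198-177303744 (GRCh38, minus strand). Its CPM were 31.7, 29.9 and 32.5 under vehicle and 46.8, 50.4 and 45.6 under thapsigargin, again with no overlap. The log2 difference was 0.61 ± 0.112 (SE, edgeR adjusted p = 0.00205). It missed the threshold without vehicle replicate 1 (adjusted p = 0.0117), without thapsigargin replicate 2 (0.0106) and with all 6 groups in 1 fit (0.0317). RAB24 shares 926 exonic bases on the same strand with MXD3, and reads there cannot be assigned to either gene with certainty.

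RAB3D, a Rab of secretory granules, lies at chr19:11322046-11346270 (GRCh38, minus strand) and fell under thapsigargin. Its CPM were 10.8, 10.3 and 8.29 under vehicle and 6.12, 5.28 and 5.18 under thapsigargin. The groups did not overlap, and the log2 difference was -0.81 ± 0.169 (SE, edgeR adjusted p = 0.00457). Leaving out vehicle replicate 1 or 2 or thapsigargin replicate 1 or 2 moved the adjusted p to between 0.0106 and 0.0264, past the threshold, as did the fit of all 6 groups (0.0106). Its paralogs RAB3A and RAB3B of regulated exocytosis did not pass, with log2 differences of 0.01 and -0.29, and RAB3D shares 144 exonic bases on the same strand with TMEM205.

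RAB11A, which directs slow recycling through the recycling endosome, lies at chr15:65726054-65891991 (GRCh38, plus strand) and fell as well. It stood at 157, 185 and 146 CPM under vehicle and at 106, 117 and 77.9 CPM under thapsigargin, with every thapsigargin library below every vehicle library. The log2 difference was -0.69 ± 0.147 (SE, edgeR adjusted p = 0.00513). Without vehicle replicate 1, vehicle replicate 2 or thapsigargin replicate 1 its adjusted p was 0.019, 0.0137 or 0.0131. The paralog RAB11B, at 107 ± 5.72 CPM under vehicle and 98.5 ± 9.79 under thapsigargin (SD, n = 3), had a log2 difference of -0.10.

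**Figure D2:**
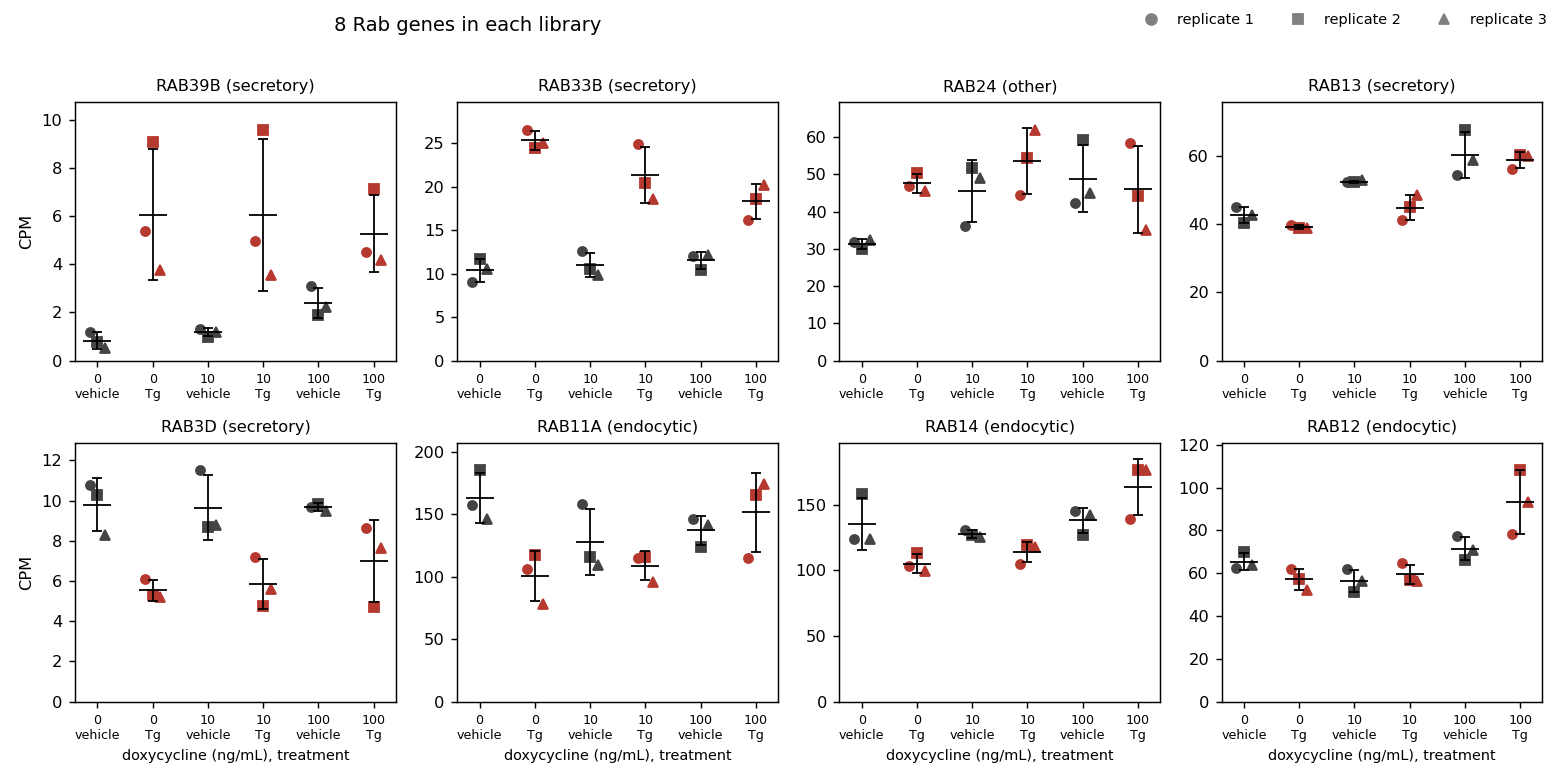
CPM of 8 Rab genes in each of the 18 libraries, by doxycycline dose and treatment (Tg, thapsigargin, in red). Symbols give the replicate number, and horizontal lines with bars the mean and SD of 3 libraries. RAB39B and RAB33B are higher in each thapsigargin library than in each vehicle library of the same dose, while RAB14 and RAB12 are highest in thapsigargin-treated replicates 2 and 3 at 100 ng/mL.

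At a looser threshold of 0.05, which 22.6% of all genes passed, 8 further members differed between thapsigargin and vehicle in uninduced cells. RAB9B, of traffic from late endosomes to the Golgi, was higher by 0.71 on the log2 scale, with thapsigargin replicate 3 below vehicle replicate 2. RAB31, RAB6B, RAB22A, RAB14, RAB1B, RAB4A and RAB5C were lower, with log2 differences from -0.46 for RAB31 to -0.31 for RAB5C and edgeR adjusted p from 0.0154 to 0.0492. In these 7 genes the groups did not overlap. With RAB3D and RAB11A, 9 of 48 members were lower at this threshold, beside 1507 of 14397 genes, and 4 were higher, beside 1753. Of the 9, RAB11A, RAB14, RAB22A, RAB31, RAB4A and RAB5C act on early and recycling endosomes, a group with 12 tested members. This grouping was made after the values were seen and was not tested.

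By pathway, the thapsigargin libraries lay wholly below the vehicle libraries in 9 of the 18 endocytic members and wholly above in 1, beside 20% of all genes below and 20% above. For the secretory members the numbers were 4 of 19 below and 2 above, and for the other members 2 of 11 each way. The median log2 difference was -0.14 for endocytic, -0.18 for secretory and -0.02 for other members, beside -0.0066 for all 14397 genes tested. Summed over the 51 members, the level was 3257 ± 165 CPM under vehicle and 2889 ± 102 CPM under thapsigargin (SD, n = 3). RAB1B, the member with the highest level per kb, stood at 282, 264 and 268 CPM under vehicle and at 203, 202 and 236 under thapsigargin. In whole-culture RNA, less RNA per cell and fewer cells of a kind cannot be told apart.

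Thapsigargin at 10 ng/mL doxycycline moved 1 Rab gene past the threshold, RAB39B, which makes 1 higher and 0 lower of 50 members tested, beside 1.16% and 0.294% of all genes. RAB39B stood at 1.33, 1 and 1.20 CPM under vehicle and at 4.98, 9.59 and 3.55 CPM under thapsigargin. Its groups did not overlap, with a log2 difference of 2.35 ± 0.376 (SE, edgeR adjusted p = 0.0077). This call depended on single libraries: it was lost in 4 of 6 fits that left out a library, namely any vehicle replicate or thapsigargin replicate 2, with adjusted p from 0.0101 to 0.0724. RAB33B, at 12.6, 10.5 and 9.90 CPM against 24.9, 20.5 and 18.6 CPM, was higher by 0.95 on the log2 scale at an edgeR adjusted p of 0.0104. Here too no thapsigargin library overlapped a vehicle library. Over the family the libraries did not overlap in 6 members higher and 12 lower, beside 15.6% and 12.9% of all genes, and 13 members had an unadjusted p under 0.05, beside 24.7%.

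At 100 ng/mL doxycycline 0 of 50 Rab genes passed between thapsigargin and vehicle, beside 0.201% of all genes. At an unadjusted p under 0.05 there were 14 (all genes, 27%), the libraries did not overlap in 7 higher and 2 lower (all genes, 10.7% and 15.1%), and DESeq2 called 3, RAB39B, RAB9B and RAB33B. The share of all genes called by DESeq2 is not given here or below, so its counts are not results about Rab genes. RAB39B stood at 3.08, 1.89 and 2.23 CPM under vehicle and at 4.51, 7.11 and 4.18 CPM under thapsigargin, a log2 difference of 1.15 ± 0.295 (SE, edgeR adjusted p = 0.0591). RAB33B stood at 12.0, 10.4 and 12.2 CPM against 16.2, 18.6 and 20.2 CPM, a log2 difference of 0.69 ± 0.169 (SE, edgeR adjusted p = 0.0529). Neither gene's groups overlapped. Without the 2 libraries that stand apart the log2 differences were 0.95 for RAB39B (edgeR adjusted p = 0.294) and 0.52 for RAB33B (adjusted p = 0.521), from 1 thapsigargin library. RAB9B was higher by 0.86 (edgeR adjusted p = 0.0424), and by 0.68 without those libraries (adjusted p = 0.294).

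RAB39B and RAB33B thus had log2 differences of 2.86, 2.35 and 1.15 and of 1.30, 0.95 and 0.69 at 0, 10 and 100 ng/mL. At these doses mean RAB39B was 0.825, 1.18 and 2.40 CPM under vehicle and 6.06, 6.04 and 5.27 under thapsigargin. Mean RAB33B was 10.4, 11.0 and 11.6 CPM under vehicle and 25.4, 21.3 and 18.3 under thapsigargin. Whether the thapsigargin response changed with ERN2 was tested as an interaction over the 12 libraries of 2 doses. For RAB39B the difference between 100 and 0 ng/mL was -1.64 ± 0.541 (SE, edgeR adjusted p = 0.103) and for RAB33B -0.53 ± 0.207 (adjusted p = 0.143), so neither passed. RAB3D had log2 differences of -0.81, -0.73 and -0.44 at the 3 doses, and an interaction of 0.46 ± 0.275 (SE, edgeR adjusted p = 0.309). RAB24 had log2 differences of 0.61, 0.23 and -0.06, and an interaction of -0.59 ± 0.241 (SE, edgeR adjusted p = 0.153). RAB11A had log2 differences of -0.69, -0.23 and 0.17, and an interaction of 0.94 ± 0.255 (SE, edgeR adjusted p = 0.0765). Without the 2 libraries that stand apart, 1 thapsigargin library is left at 100 ng/mL. The interactions were then -1.87 for RAB39B, -0.74 for RAB33B, 0.72 for RAB3D, -0.28 for RAB24 and 0.51 for RAB11A. The log2 differences at 100 ng/mL were then -0.14 for RAB3D, 0.29 for RAB24 and -0.22 for RAB11A. Those of RAB24 and RAB11A thus changed sign.

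Over the family, the interaction passed for 0 of 50 members at 10 ng/mL and for 0 of 50 at 100 ng/mL, beside 0% and 0.0406% of all genes. At an unadjusted p under 0.05 there were 2 and 22 members, beside 4.47% and 24.7% of all genes, and DESeq2 called 0 at either dose. Without thapsigargin-treated replicate 1 at 100 ng/mL, 11 members passed, among them RAB6A, RAB1A and RAB11A. The share of all genes in that fit is not given, so the count is not a result about Rab genes. Without the 2 libraries that stand apart, the interactions at 100 ng/mL were 0.32 for RAB6A, 0.19 for RAB1A and 0.51 for RAB11A. That fit leaves 1 library in the group, so no count of members is given.

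**Figure D3:**
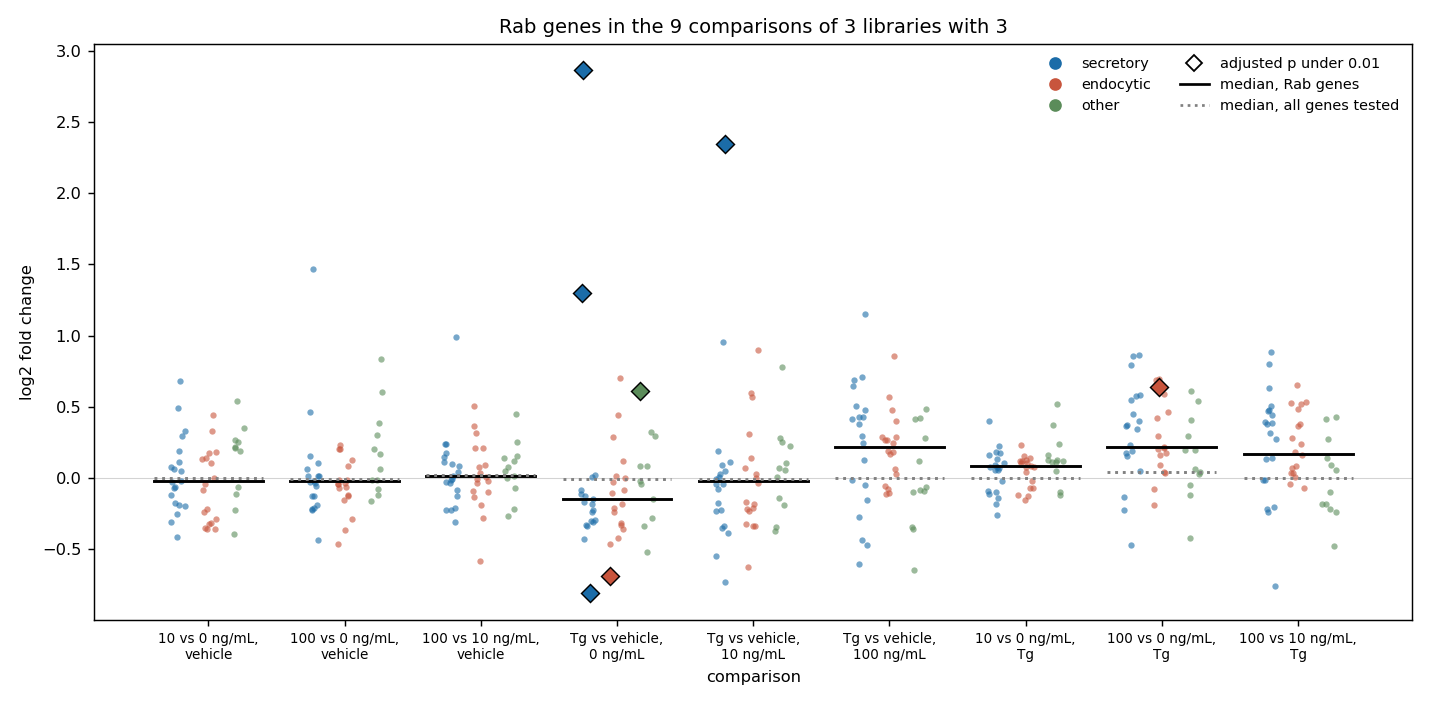
Log2 fold changes of the Rab genes in the 9 comparisons of 3 libraries with 3 (Tg, thapsigargin), 1 point for each gene tested and coloured by role, with genes past an adjusted p of 0.01 as outlined diamonds. Solid lines are the median of the Rab genes and dotted lines that of all genes tested. The Rab median lies below that of all genes for thapsigargin without doxycycline, at -0.15 and -0.0066, and above it for thapsigargin at 100 ng/mL, at 0.22 and -0.0024.

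Induction of ERN2 without thapsigargin passed 0 Rab genes. At 10 ng/mL 0 of 49 members passed, beside 0.193% of all genes, with 10 at an unadjusted p under 0.05 (all genes, 30.5%) and 0 by DESeq2. At 100 ng/mL 0 of 49 passed, beside 8.33% of all genes, with 7 at an unadjusted p under 0.05 (all genes, 29.3%) and 3 by DESeq2. For DESeq2 the share of all genes is not given, so the 3 are not a result about Rab genes. The libraries did not overlap in 9 members higher and 6 lower at 10 ng/mL, beside 14.4% and 15.3% of all genes, and in 10 higher and 3 lower at 100 ng/mL, beside 19.7% and 16.1%. Of all genes, 0.838% were higher and 7.49% lower at 100 ng/mL. These comparisons and those of thapsigargin in uninduced cells share the 3 uninduced vehicle libraries.

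RAB13, RAB39B and RAB24 were the members that DESeq2 called at 100 ng/mL under vehicle, all higher. All 3 stand on gene lists that the study drew up from these same libraries at the higher dose, so their direction is not independent evidence. RAB24 is on a list of XBP1 signature genes, and all 3 are on a list of secretory compartment genes. RAB13, a Rab of traffic to tight junctions, lies at chr1:153981617-153986358 (GRCh38, minus strand). Under vehicle it stood at 44.9, 40.3 and 42.6 CPM in uninduced cells. At 10 ng/mL it reached 52.2, 52.2 and 52.8 CPM, and at 100 ng/mL 54.5, 67.7 and 58.8 CPM. No library of 1 dose overlapped those of another. The log2 difference was 0.30 ± 0.112 at 10 ng/mL (SE, edgeR adjusted p = 0.111) and 0.46 ± 0.124 at 100 ng/mL (adjusted p = 0.0248). RAB13 shares 682 exonic bases with AL358472.6 on the same strand.

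RAB24 stood at 36.1, 51.7 and 49.0 CPM at 10 ng/mL and at 42.4, 59.2 and 45.0 CPM at 100 ng/mL under vehicle, all above the uninduced libraries. Its log2 difference from uninduced cells was 0.54 ± 0.144 at 10 ng/mL (SE, edgeR adjusted p = 0.0771) and 0.60 ± 0.145 at 100 ng/mL (adjusted p = 0.0141). For RAB39B the log2 difference at 100 ng/mL was 1.46 ± 0.336 (SE, edgeR adjusted p = 0.0104), just over the threshold, and at 10 ng/mL it was 0.49 ± 0.363 (adjusted p = 0.365). The libraries at the higher dose all lay above the uninduced ones. RAB31, of traffic between the Golgi and endosomes, was the member furthest in the other direction at 100 ng/mL, at -0.47 ± 0.137 (SE, edgeR adjusted p = 0.0393).

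Between 100 and 10 ng/mL under vehicle 0 of 50 members passed, beside 2.45% of all genes, with 4 at an unadjusted p under 0.05 (all genes, 16.1%) and 0 by DESeq2. The libraries did not overlap in 7 members higher and 1 lower, beside 10% and 12.9% of all genes. RAB39B was again the highest, with a log2 difference of 0.99 ± 0.285 (SE, edgeR adjusted p = 0.0795) and no overlap between libraries. For paralogs of called members, at 100 ng/mL against none RAB39A stood at 0.21, RAB3A at -0.19, RAB3B at -0.22 and RAB11B at 0.23 on the log2 scale, none past the threshold.

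Promoter sequence was compared for the core ACGTGG, which is part of the site TGACGTGG bound by XBP1 and ATF6, because the study lists RAB24 among XBP1 signature genes. RefSeq promoters (GRCh38.p14, 250 bases before to 50 after the start) were given for 40 of the 51 members, not for RAB39B or RAB33B. The core occurred on either strand in 8 of 40 members (20%), beside 9.72% of all 35116 promoters and 11.6% of 27305 genes. The longer TGACGTGG occurred in 0 members and in 0.729% of promoters. The 4 holders with an adjusted p under 0.05 in at least 1 comparison are shown, 30 bases each in the direction of the gene, 5′ to 3′, with the core or its reverse complement CCACGT in capitals.
RAB24: ccggcgcccgcgCCACGTgaccttgcggcc
RAB13: gcttggtgaggaACGTGGaaatgaggggac
RAB31: gccggccggcggCCACGTgacccaccgcgg
RAB18: ggaaggtggcagACGTGGagcggcgcgcat
They lie at chr5:177303733-177303762 (minus strand), chr1:153985508-153985537 (minus), chr18:9708228-9708257 (plus) and chr10:27504262-27504291 (plus). The other holders, RAB21, RAB27A, RAB40C and RAB5A, had no adjusted p under 0.05. A match is a stretch of letters and not a measured binding site. At 100 ng/mL under vehicle the log2 differences of these genes were 0.60 for RAB24, 0.46 for RAB13, -0.47 for RAB31 and -0.12 for RAB18. Other motifs were searched in the same promoters. The ER stress element, the ER stress element II and the amino acid response element each occurred in 0 of 40 members, beside 0.0696% to 1.08% of genes. A shorter part of the core occurred in 37.5% of members, beside 42.1% of genes. The core was the only motif searched that was more frequent in members than in all genes, and this excess was not tested.

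Doxycycline under thapsigargin was compared in the same way, and these comparisons share the thapsigargin libraries with those above. At 10 against 0 ng/mL 0 of 50 members passed, beside 0% of all genes, with 0 at an unadjusted p under 0.05 (all genes, 4.22%) and 0 by DESeq2. The libraries did not overlap in 4 members higher and 1 lower, beside 4.6% and 5.4% of all genes. Here the replicate numbers paired the libraries, and with them as a block 0 members passed and 10 had an unadjusted p under 0.05, beside 24.1% of all genes in the same blocked fit. At 100 against 10 ng/mL 0 of 50 passed, beside 5.55% of all genes, with 15 at an unadjusted p under 0.05 (all genes, 31.6%) and 4 by DESeq2, RAB6A, RAB14, RAB8B and RAB12. Their log2 differences were 0.80, 0.53, 0.88 and 0.65 in edgeR, and 0.016, 0.29, 0.31 and 0.39 without the 2 libraries that stand apart. That fit leaves 1 library at 100 ng/mL, so no count of members is given. The libraries did not overlap in 11 higher and 1 lower, beside 12.9% and 18.6% of all genes.

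RAB14, which moves cargo between the Golgi and endosomes, was the 1 member that rose at 100 against 0 ng/mL under thapsigargin, 1 of 49 tested, beside 1.53% of all genes higher and 9% lower. It lies at chr9:121178137-121223014 (GRCh38, minus strand). RAB14 stood at 103, 113 and 99.3 CPM without doxycycline and at 139, 176 and 176 CPM at 100 ng/mL. The groups did not overlap, and the log2 difference was 0.64 ± 0.148 (SE, edgeR adjusted p = 0.00917). Without replicates 2 and 3 at 100 ng/mL it was 0.39 (adjusted p = 0.207), and it missed the threshold in 5 of 6 fits that left out a library, all but that without replicate 1 at 100 ng/mL.

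Between the 0.01 and 0.05 thresholds lay RAB12, RAB22A, RAB13, RAB1A, RAB7A, RAB8B, RAB6A, RAB2A and RAB18, with log2 differences from 0.54 for RAB18 to 0.86 for RAB1A. Without the 2 libraries that stand apart, RAB12 went from 0.70 to 0.43, RAB22A from 0.69 to 0.39, RAB7A from 0.66 to 0.35, RAB8B from 0.79 to 0.21, RAB2A from 0.58 to 0.23 and RAB18 from 0.54 to 0.12 on the log2 scale. RAB13 went from 0.58 to 0.50. In the other direction, RAB33B was lower without overlap, with a log2 difference of -0.47 (edgeR adjusted p = 0.0577). Without the 2 libraries that stand apart it was -0.66, so this difference did not shrink. That fit leaves 1 library at 100 ng/mL. RAB1A of ER-to-Golgi transport stood at 79.9, 103 and 67.5 CPM without doxycycline and at 105, 180 and 173 CPM at 100 ng/mL. RAB6A of the Golgi stood at 108, 125 and 87.6 CPM against 113, 243 and 227 CPM. In both genes replicate 1 lay close to the uninduced range and replicates 2 and 3 far above it. Without those 2 libraries the log2 difference was 0.31 for RAB1A (edgeR adjusted p = 0.42) and 0.07 for RAB6A (adjusted p = 0.894).

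The same 2 libraries had the highest summed Rab level, but not the highest level of most members. Both exceeded all other 16 libraries in 16 of the 51 members, beside 15.5% of all 15023 genes kept, and both lay below them in 4, beside 12.4%. The 16 comprised 8 secretory members (RAB1A, RAB2A, RAB2B, RAB6A, RAB8A, RAB8B, RAB10 and RAB27A), 7 endocytic members (RAB5A, RAB7A, RAB9A, RAB12, RAB14, RAB21 and RAB22A) and RAB18. Their summed Rab level was 3949 and 3910 CPM, while the other libraries ranged from 2805 to 3446 CPM. For the third library of that group it was 3321 CPM. The part of these libraries' other differences in this result was not tested.

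**Figure D4:**
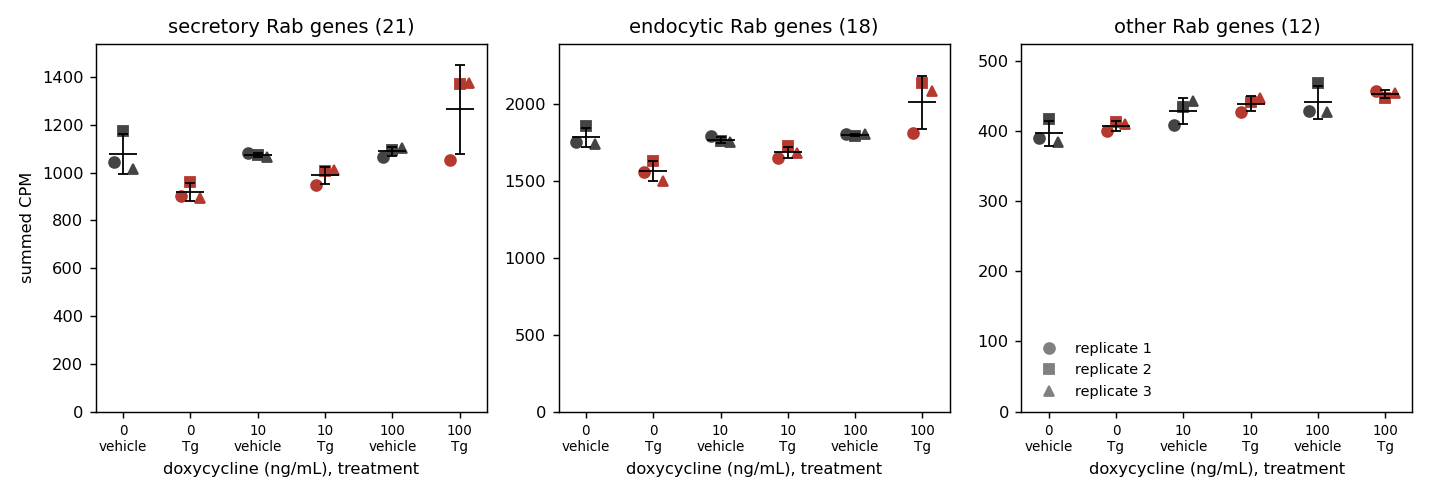
Summed CPM of the secretory, endocytic and other Rab genes in each library, by doxycycline dose and treatment (Tg, thapsigargin, in red). Symbols give the replicate number, lines with bars the mean and SD of 3 libraries. Thapsigargin-treated replicates 2 and 3 at 100 ng/mL lie highest for secretory (1370 and 1373) and endocytic genes (2133 and 2082) but within the range of the others for the remaining genes (446.6 and 454.8).

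The median log2 difference of the tested members at 100 against 0 ng/mL under thapsigargin was 0.22 (all genes, 0.04). Of 49 members, 41 lay above zero, beside 7739 of 14358 genes. The libraries did not overlap in 14 members higher and 2 lower, beside 16.1% and 20.4% of all genes, and 19 members had an unadjusted p under 0.05, beside 35.6%. Without the 2 libraries that stand apart it was 0.185. For thapsigargin against vehicle at 100 ng/mL the median was 0.22 (all genes, -0.0024), and 0.03 without those libraries. With all libraries, 32 of 50 members lay above zero, beside 7175 of 14427 genes. The number of members past the threshold was 0 without them in each of the 4 comparisons they enter.

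Of the members with other roles, 4 are given here that were chosen after their values were seen. RAB32 of lysosome-related organelles lay between 27.2 and 39.2 CPM over all 18 libraries. RAB38, its melanosome paralog, stood at 6.63 ± 1.26, 7.57 ± 1.48 and 8.37 ± 0.61 CPM under vehicle at 0, 10 and 100 ng/mL and at 4.59 ± 0.204, 5.99 ± 0.434 and 5.22 ± 1.97 CPM under thapsigargin (SD, n = 3). Its thapsigargin libraries lay below the vehicle libraries at each dose, with log2 differences of -0.52, -0.34 and -0.65, none past the threshold, and -0.42 at 100 ng/mL without the 2 libraries that stand apart. RAB40C, an adaptor of a cullin ubiquitin ligase, was lower at 100 against 0 ng/mL under thapsigargin with a log2 difference of -0.42 (edgeR adjusted p = 0.126) without overlap, and -0.10 without those libraries. RAB36, about which less is known, had a log2 difference of 0.39 at 100 ng/mL under vehicle (edgeR adjusted p = 0.0514), also without overlap.

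**Figure D5:**
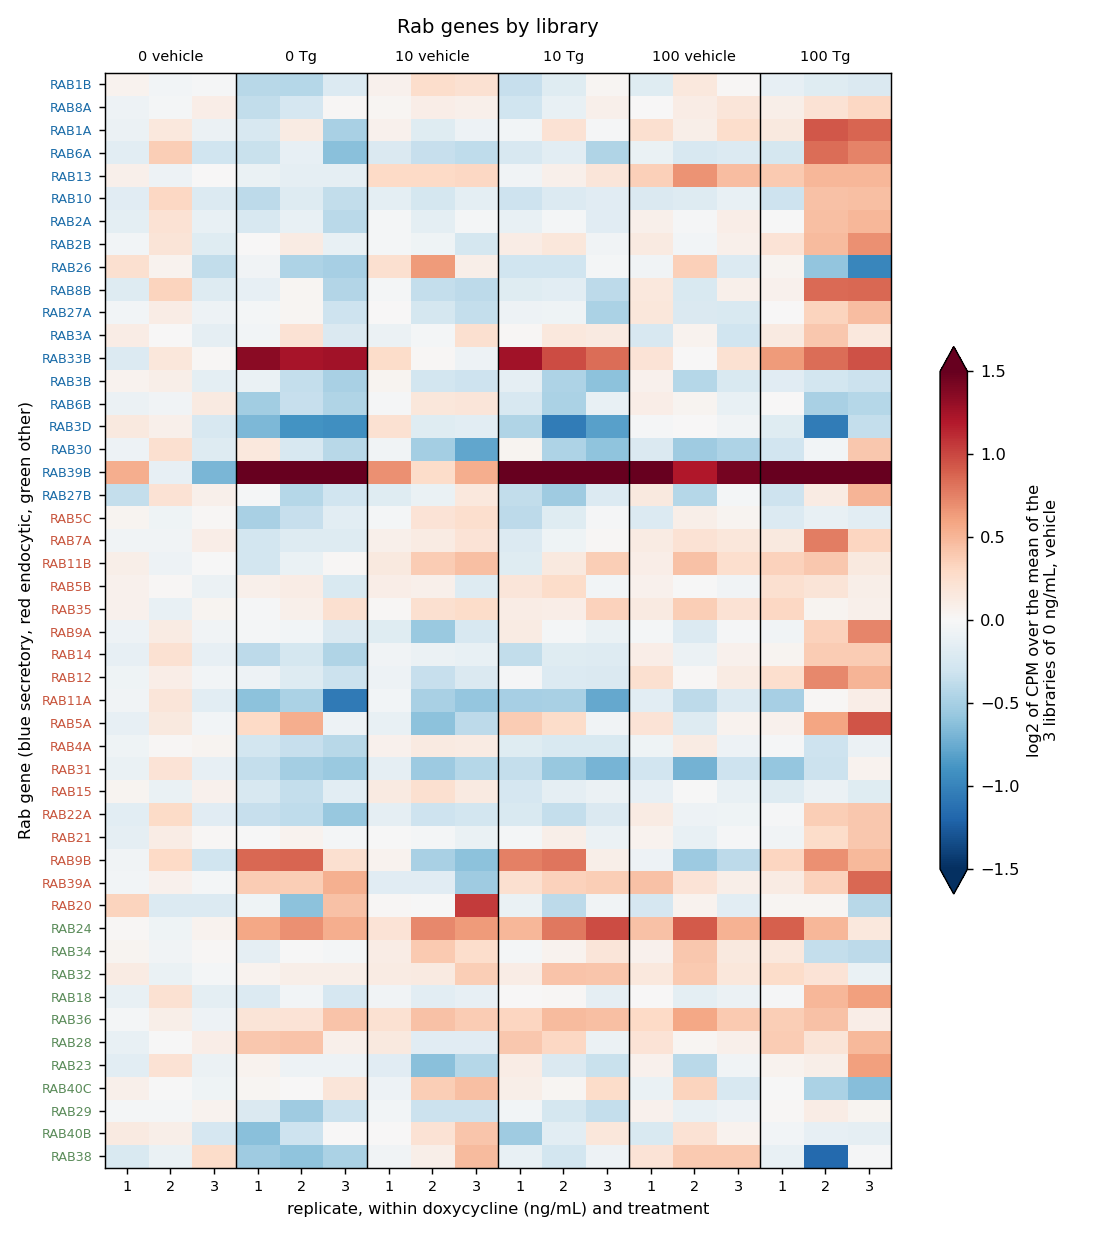
Log2 ratio of each library's CPM to the mean of the 3 vehicle libraries without doxycycline, for the 48 Rab genes with a mean of at least 1 CPM (rows) and the 18 libraries (columns, by dose in ng/mL and treatment, Tg for thapsigargin). Colours end at 1.5 in either direction, which only RAB39B passed. RAB39B and RAB33B are high under Tg at each dose, and replicates 2 and 3 of 100 Tg are high in RAB1A, RAB6A and RAB8B.

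Proteins that load, end or read the Rab signal were described from a list of 132 genes, of which 130 had a row and 125 were tested. Under thapsigargin without doxycycline 7 rose and 2 fell of 125, beside 6.45% of all genes higher and 4.74% lower. BICD1, a dynein adaptor that binds RAB6, rose by 0.82 ± 0.108, MON1B, part of the exchange factor of RAB7, by 0.55 ± 0.103, and TBC1D10A, a GTPase-activating protein, by 0.66 ± 0.126 (log2 ± SE). ARL6IP5, a prenylated Rab acceptor relative, fell by 0.79 on the log2 scale, from 33.3 ± 1.3 to 19.2 ± 0.835 CPM (SD, n = 3).

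TBC1D9B, a GTPase-activating protein, was the 1 gene of the list that passed under vehicle, and it fell. Its CPM under vehicle were 215 ± 13.9 in uninduced cells, 183 ± 20.7 at the lower dose and 109 ± 15.7 at the higher (SD, n = 3). The log2 difference at 100 against 0 ng/mL was -1.03 ± 0.124 under vehicle (SE, edgeR adjusted p = 8.9e-05) and -1.35 ± 0.166 under thapsigargin (adjusted p = 0.000114). Between 100 and 10 ng/mL it also fell, by 0.78 under vehicle and 0.97 under thapsigargin on the log2 scale. At 100 against 0 ng/mL under thapsigargin, TRAPPC3 and TBC1D24 also fell and TRAPPC1 rose, with log2 differences of -0.68, -0.74 and 0.66, and EVI5L fell, which makes 1 higher and 4 lower of 125, beside 1.53% and 9% of all genes. For comparisons with thapsigargin at 100 ng/mL the list was not fitted without the 2 libraries that stand apart. In the 6 other comparisons 0 of 125 passed. At an unadjusted p under 0.05 these had 2 to 49 genes of the list, beside 4.22% to 30.5% of all genes.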

How the data were processed

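The authors deposited 1 table of read counts per gene for the 18 libraries, from single-end sequencing of KAPA stranded mRNA libraries. The submitters' processing notes name STAR, DESeq2 and hg38. The aligner version, the annotation and the strand setting of the counting are not given in the sources used here. Of 25435 rows with 25433 distinct symbols, 28 had been turned into dates and name no gene that was used. Columns left unused numbered 0.

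Counts were analysed in R 4.3.3 with edgeR 4.0.16 (quasi-likelihood test, TMM scaling, filterByExpr with a minimum count of 10) and limma 3.58.1, in 9 comparisons of 2 groups and 2 interactions of thapsigargin with dose. Each fit used only the groups compared, and p-values were adjusted by Benjamini-Hochberg over all genes tested, with a threshold of 0.01. The standard error is the absolute log2 difference divided by the square root of F. CPM were TMM-scaled over the 18 libraries, and exon lengths and positions came from GENCODE 29 (GRCh38). Libraries held 14876416 to 24652240 counts, and intervals of counting error are not given because the spread between libraries exceeded it: replicate pairs had a chi-square per degree of freedom of 7.33 to 63.8, so none was counted as 1 library. An exact two-sided permutation test of 3 against 3 cannot go below 0.1. DESeq2 1.42.0, RLE size factors, no count filter, all 6 groups in 1 fit, the replicate number as a block, a threshold of 0.05 and leaving out each library were tried as alternatives, and the test was checked on simulated data. Figures used Python 3.11.15, matplotlib 3.10.9 and pandas 2.3.3.

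Same-numbered libraries deviated together in all 3 pairs between 10 and 0 ng/mL under thapsigargin (correlations of 0.38, 0.32 and 0.43) and in no other comparison did all 3 correlations exceed 0.1, so the numbers were taken as pairs only there. The members, their roles and the list of regulators were chosen with earlier results of these data known. Genes named were members past the threshold in any comparison, the highest member of each role per kb, RAB24, RAB13 and RAB39B, which the study lists, paralogs of called members, up to 4 called regulators per comparison, and ERN2, HSPA5 and DDIT3. Members between the 0.01 and 0.05 thresholds and other members named beyond this were chosen after their values were seen.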

Additional observations from a re-analysis of the deposited data

Results flagged for a closer look

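RAB12, of transfer to lysosomes, lay on opposite sides of vehicle under thapsigargin at 0 and 100 ng/mL doxycycline in all libraries. Without doxycycline the thapsigargin libraries, at 62.0, 57.2 and 52.3 CPM, all lay below the vehicle libraries, at 62.6, 70.0 and 63.6 CPM (log2 difference -0.18, edgeR adjusted p = 0.271). At 100 ng/mL they lay above, at 78.1, 108 and 93.1 against 77.2, 66.3 and 71.0 CPM (0.40, adjusted p = 0.143). The interaction was 0.67 ± 0.196 (SE, edgeR adjusted p = 0.085), which did not pass, and 0.38 (adjusted p = 0.684) without the 2 libraries that stand apart.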

How the results depend on the processing

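The alternatives were followed for 36 gene values, each with an edgeR adjusted p under 0.05 in the main fit. None reversed direction, but values past that threshold were unlikely to. Other values did reverse without the 2 libraries that stand apart. For thapsigargin against vehicle at 100 ng/mL, RAB11A went from 0.17 to -0.22 and RAB24 from -0.06 to 0.29 on the log2 scale. For 100 against 0 ng/mL under vehicle, where 0 members were called, RLE scaling called 1, DESeq2 3, no count filter 2, all 6 groups in 1 fit 1 and a threshold of 0.05 called 4. For thapsigargin without doxycycline, where 5 were called, the fit of all groups called 3 and the looser threshold 13. For thapsigargin at 10 ng/mL, where 1 was called, DESeq2 called 3, no filter 2, all groups 2 and the looser threshold 3. For thapsigargin at 100 ng/mL, where 0 were called, DESeq2 called 3, all groups 1 and the looser threshold 1. For 100 against 0 ng/mL under thapsigargin, where 1 was called, RLE called 3, DESeq2 8, no filter 7, all groups 9 and the looser threshold 10. Leaving out both libraries that stand apart, chosen after seeing the data, left 1 library in the group, so no count is given. For 100 against 10 ng/mL under thapsigargin, where 0 were called, DESeq2, no filter and all groups each called 4 and the looser threshold 5. The cause was not tested. Leaving out 1 library gave 0 to 6 calls for 10 against 0 ng/mL under vehicle (6 without Low ERN2 control replicate 1), 0 to 1 for 100 against 0, and 0 to 0 for 100 against 10. For thapsigargin it gave 2 to 8 without doxycycline (2 without No ERN2 control replicate 1, 3 without No ERN2 stress replicate 1 or 2, 8 without replicate 3), 0 to 3 at 10 ng/mL (0 without Low ERN2 control replicate 2 or 3 or stress replicate 2, 3 without stress replicate 3) and 0 to 12 at 100 ng/mL. Under thapsigargin it gave 0 to 0 for 10 against 0, 0 to 15 for 100 against 0 and 0 to 11 for 100 against 10, and for the interactions 0 to 0 and 0 to 11. The highest counts of 12, 15, 11 and 11 came without High ERN2 stress replicate 1.

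With the replicate number as a block, 13 members were called for thapsigargin without doxycycline and 14 at 10 ng/mL. It was 1 for 100 against 0 ng/mL under thapsigargin and 0 in the other comparisons. Counts of calls under the alternatives, DESeq2 included, are mostly given without the share of all genes in the same fit. They show how the calls depend on the processing, not whether Rab genes differ from other genes. Outside 10 against 0 ng/mL under thapsigargin, whether same-numbered libraries are pairs was not settled. For thapsigargin against vehicle their correlations were 0.081, 0.18 and 0.25 without doxycycline and 0.46, -0.035 and 0.4 at 10 ng/mL.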
